A study of Homo sapiens with 12 samples.

Results

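The 32 genes described here belong to the pathways that make cholesterol and fatty acids. They were listed by name, with earlier results of these data known. They were matched on their symbols in both deposited tables, where all 32 were found among 58381 genes, and all 32 passed the filter on low counts that left 15944 genes to test. By role, 5 are regulators, 8 act in the mevalonate branch, 11 act between squalene and cholesterol, 1 carries sterols and 7 act in fatty acid synthesis and desaturation.

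RNA was sequenced from 4 groups of HMC-1 cells, a human mast cell line from mast cell leukaemia, with 3 libraries in each group. HMC-1.1 cells carry V560G-KIT alone, and HMC-1.2 cells carry V560G-KIT and D816V-KIT, both activating changes of the receptor tyrosine kinase KIT. HMC-1.3 was made from HMC-1.2 by repairing V560G with CRISPR/Cas9, which left D816V-KIT on 1 allele together with a silent base change at the cut site. HMC-1.3 clone 1 and clone 2 are single clones that also went through electroporation, puromycin selection and limiting dilution, steps that neither HMC-1.1 nor HMC-1.2 went through. All groups were kept in the same serum-containing medium for 72 h with no treatment, and 600 ng of RNA entered each library. The 3 libraries of a group came from 3 wells of 1 line, so the p-values measure the spread between wells and not between independent lines or clones. The comparisons of HMC-1.3 with HMC-1.2 ask what goes with the loss of V560G-KIT, and the clones against each other show how far 2 clones of the same KIT genotype differ.

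Cells build cholesterol from acetyl-CoA through mevalonate, isoprenoid diphosphates, squalene and lanosterol, and build fatty acids from malonyl-CoA. The transcription factors SREBP-1 and SREBP-2, encoded by SREBF1 and SREBF2, switch on the genes of both pathways. They are held in the endoplasmic reticulum by SCAP and the INSIG proteins when sterols are plentiful, and move to the Golgi to be cut and released when sterols run low. Mast cells need these lipids for membranes, and they make eicosanoids from polyunsaturated fatty acids.

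Total expected counts lay between 29225900 and 43181402 per library, and the members had between 564 and 112238 counts in each library, so counting error was small for each of them. The wells of a group differed by more than sampling noise, and no pair of libraries was counted as 1. Of 10 mast cell markers 8 reached 1 FPKM (fragments per kilobase of transcript, scaled to library depth) in at least 1 library. Mean levels of KIT were 356 to 450 FPKM, while CMA1 and MS4A2 stayed below 1 FPKM. FCER1A reached it only in HMC-1.2 and clone 2, and was 0.12 to 0.17 FPKM in HMC-1.1 and clone 1. TPSAB1 was at 592 FPKM in HMC-1.2 against 29.4 to 44.2 in the other groups. KIT carries the edit, but its level does not check it, because the tables hold no bases. Hepatocyte markers, from the best known lipogenic cell, reached at most 0.4 FPKM. Among the fibroblast or epithelial markers KRT18 reached 7.85 FPKM in 1 clone 2 library. The summed erythroid markers were 0.62 to 0.89 FPKM in HMC-1.2 and 1.96 to 4.1 in the other groups. The part of these transcripts in the results was not tested.

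Over the whole set, the summed level was lowest in clone 1 and highest in HMC-1.2. Without SREBF1, INSIG1 and FADS2 it was highest in clone 2. The members took 0.648% to 0.669% of all counts in the clone 1 libraries, 0.819% to 0.828% for HMC-1.1, 0.92% to 0.948% for clone 2 and 0.957% to 0.96% for HMC-1.2, and these ranges did not overlap. The summed level of the 32 genes was 2429 ± 37.7 FPKM for clone 1, 3037 ± 30.6 for HMC-1.1, 3489 ± 26.3 for clone 2 and 3682 ± 18.2 for HMC-1.2 (SD, n = 3). Without those 3 genes it was 1960 ± 23.4 FPKM for clone 1, 2422 ± 24 for HMC-1.1, 2610 ± 18.1 for HMC-1.2 and 2854 ± 8.85 for clone 2. These 3 genes were picked for their high values in HMC-1.2, so the change of order is no independent result. Leaving out each of them alone from the whole set was not tried. SCD, which inserts the first double bond into saturated fatty acids, alone made up 11.7% to 15.9% of the sum over all 32 genes. A level here is an average over the cells of a well, and a change in each cell cannot be told apart from a change in the share of cells that express a gene.

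**Figure D1:**
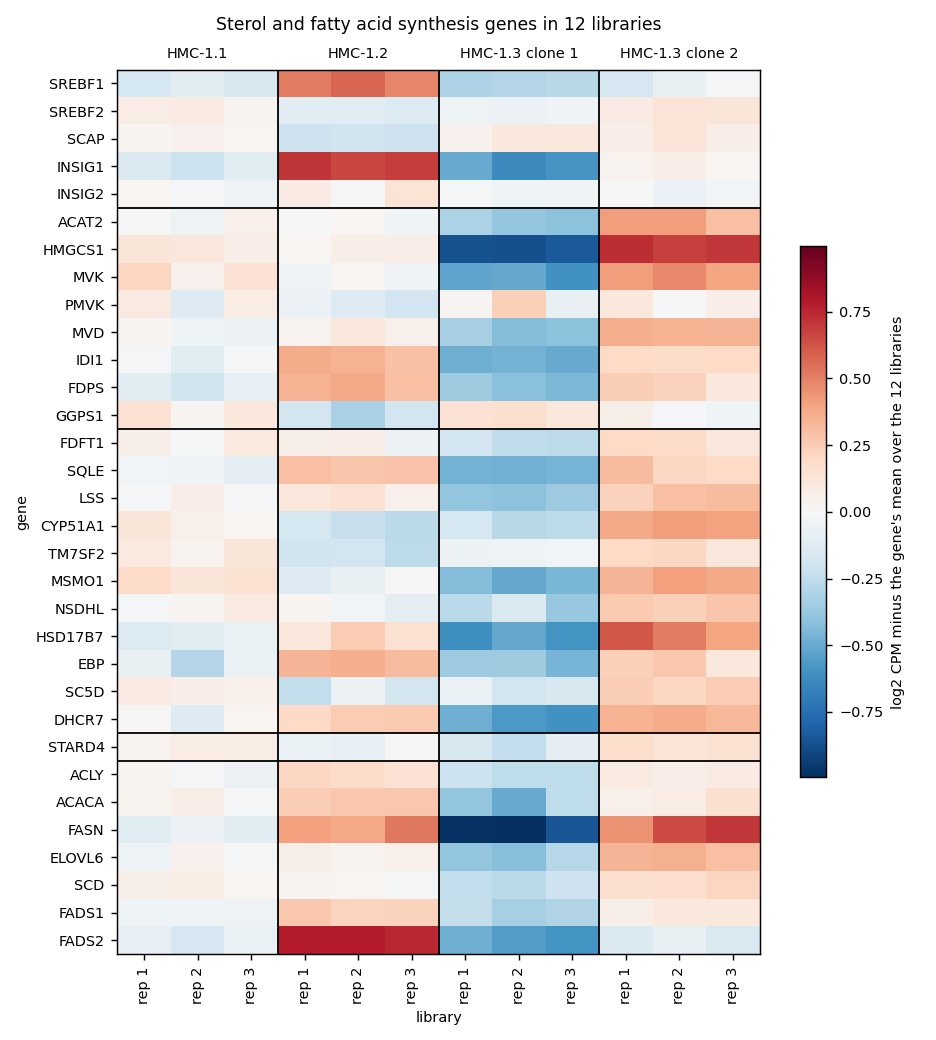
Heatmap of the 32 genes in the 12 libraries, with genes as rows grouped by role (regulators, mevalonate branch, squalene to cholesterol, sterol transport, fatty acids) and libraries as columns grouped by subline. The colour is log2 CPM minus the mean of the gene over the 12 libraries. Clone 1 is the lowest group by mean FPKM for 24 of 32 genes. The dark red cells of SREBF1, INSIG1 and FADS2 lie in HMC-1.2, and among the other dark red cells are those of HMGCS1 and FASN in clone 2.

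The roles did not share 1 order of groups. The sums of the 5 regulators and of the 7 fatty acid genes were highest in HMC-1.2, at 676 ± 7.42 and 1401 ± 5.53 FPKM, while clone 2 stood at 504 ± 10.2 and 1230 ± 27.4. Those orders rested on SREBF1 and INSIG1 and on FADS2, picked in the same way. Without SREBF1 and INSIG1 the other 3 regulators summed to 123 ± 0.444 FPKM for HMC-1.2, 137 ± 0.866 for clone 1, 141 ± 3.7 for HMC-1.1 and 146 ± 2.33 for clone 2. The fatty acid genes without FADS2 summed to 882 ± 3.26 FPKM for HMC-1.2 and 954 ± 27.8 for clone 2. For the 8 mevalonate genes and the 11 genes from squalene to cholesterol the sum was highest in clone 2, at 873 ± 17.1 and 854 ± 16.4 FPKM, against 824 ± 14.4 and 757 ± 8.67 in HMC-1.2 (SD, n = 3). With all genes in the sums, clone 1 had the lowest sum in all 4 roles, with 390 ± 4.96 FPKM for the regulators, 546 ± 10.1 for the mevalonate branch, 577 ± 13.1 from squalene to cholesterol and 894 ± 20.4 for the fatty acid genes. By gene, the mean FPKM was lowest in clone 1 for 24 members, in HMC-1.2 for 7 and in HMC-1.1 for 1. It was highest in clone 2 for 20 members, in HMC-1.2 for 9 and in clone 1 for 3.

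**Figure D2:**
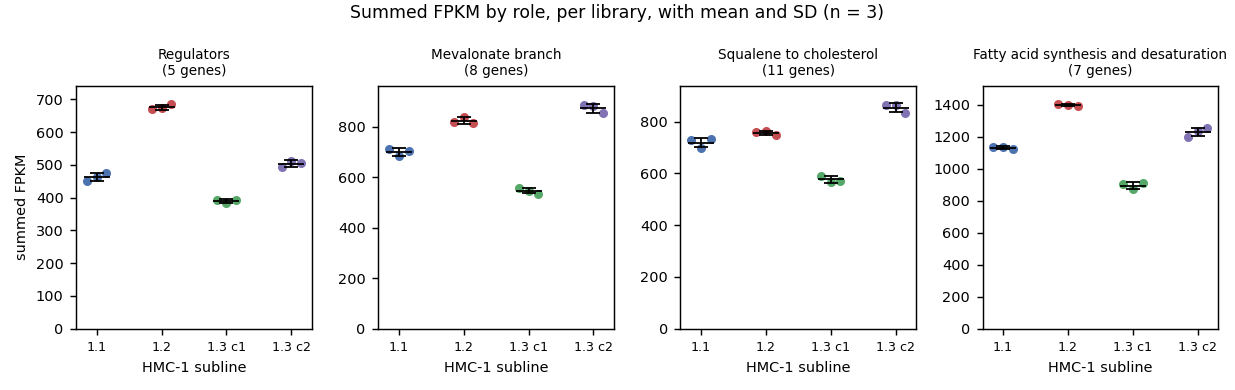
Summed FPKM of the genes of each role (5, 8, 11 and 7 genes) in each subline, with 1 point per library and the mean and SD as bars (n = 3). HMC-1.2 is highest for regulators and fatty acid genes, which rests on SREBF1, INSIG1 and FADS2, clone 2 for both sterol roles, and clone 1 is lowest in each of the 4 panels.

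RefSeq promoter windows on GRCh38.p14 are shown for 5 members. They were picked because these genes behaved differently and because their upstream sequences differ in the short motifs known from sterol-regulated promoters. Picked on both, they cannot show whether a motif goes with expression, and this was not tested over the members. HMGCS1 and MSMO1 stand for the genes called between the clones, and INSIG1 and SREBF1 for those highest in HMC-1.2. INSIG1 belongs to both, as it was also called between the clones. SREBF2 stands for a regulator that changed little. Each window holds the 250 bases before the RefSeq start, 5′ to 3′ on the strand of the gene. The windows are chr5:43313413-43313662 (minus strand) for HMGCS1, chr4:165327419-165327668 (plus) for MSMO1, chr7:155297628-155297877 (plus) for INSIG1, chr17:17836987-17837236 (minus) for SREBF1 and chr22:41832855-41833104 (plus) for SREBF2. HMGCS1 has 2 windows in the table, of which the one with more CCAAT matches is shown. Capitals mark CCAAT, the box bound by NF-Y, also read from the other strand as ATTGG, the E-box CACGTG, and the sterol response element written TCACNCCAC.
HMGCS1: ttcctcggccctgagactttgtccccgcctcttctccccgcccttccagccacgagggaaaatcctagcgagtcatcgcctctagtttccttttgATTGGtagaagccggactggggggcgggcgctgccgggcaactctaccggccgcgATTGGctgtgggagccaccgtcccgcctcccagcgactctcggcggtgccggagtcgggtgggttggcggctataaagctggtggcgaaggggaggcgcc
MSMO1: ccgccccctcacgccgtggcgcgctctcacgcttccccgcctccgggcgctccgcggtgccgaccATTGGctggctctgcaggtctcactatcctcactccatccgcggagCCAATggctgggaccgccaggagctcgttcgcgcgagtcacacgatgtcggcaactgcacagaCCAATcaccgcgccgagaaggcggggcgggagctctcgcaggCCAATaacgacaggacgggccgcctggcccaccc
INSIG1: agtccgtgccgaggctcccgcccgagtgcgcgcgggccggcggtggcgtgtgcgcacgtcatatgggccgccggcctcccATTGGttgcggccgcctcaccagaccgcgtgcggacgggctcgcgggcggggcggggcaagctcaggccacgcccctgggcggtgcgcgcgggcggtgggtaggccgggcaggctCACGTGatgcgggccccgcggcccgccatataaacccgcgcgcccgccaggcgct
SREBF1: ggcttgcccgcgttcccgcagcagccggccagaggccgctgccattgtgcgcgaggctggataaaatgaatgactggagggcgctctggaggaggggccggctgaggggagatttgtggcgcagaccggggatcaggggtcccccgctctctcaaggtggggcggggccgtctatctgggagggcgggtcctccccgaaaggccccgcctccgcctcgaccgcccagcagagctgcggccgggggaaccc
SREBF2: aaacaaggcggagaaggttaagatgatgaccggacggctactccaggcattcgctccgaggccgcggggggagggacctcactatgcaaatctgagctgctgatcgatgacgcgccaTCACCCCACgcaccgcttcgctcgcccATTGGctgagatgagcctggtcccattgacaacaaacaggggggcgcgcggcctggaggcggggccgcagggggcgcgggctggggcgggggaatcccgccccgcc

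The SREBF1 window holds no capitals, that of HMGCS1 holds 2 CCAAT boxes and that of MSMO1 holds 4. SREBF1 has 1 window here, and any other start of this gene was not searched. Among the 28 members with a window (FASN, FDFT1, SQLE and ACAT2 had no entry), 20 or 71.4% held CCAAT on either strand, against 37% of 27305 genes in the table. The GC box GGGCGG, known to bind Sp1 and not capitalised above, was present in 27 members or 96.4%, against 46.2% of all genes. CACGTG was present in INSIG1, SC5D and SCAP, 10.7% of the members against 7.73% of all genes. TCACNCCAC was present in SREBF2 alone, 3.57% of members against 1.09%. In the printed windows no match shares letters with a match of a different motif. The background was not matched for base composition, and a match is a description of letters, not a site in use.

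Differences between groups were tested on the counts with edgeR, and a gene was called where the adjusted p was under 0.05 and the fold change over 1.5. The 3 comparisons with HMC-1.2 share its 3 libraries, so their values stand side by side and are not independent. In clone 1 against HMC-1.2, 12 of 32 members were called lower and 0 higher, against a background of 8.18% and 11.8% of all genes tested, and the median log2 fold change of the members was -0.44. In clone 2 against HMC-1.2, 3 members were called lower and 2 higher, with a background of 8.51% and 7.98%, and the median was 0.18. For HMC-1.1 set against HMC-1.2, 3 were called lower and 0 higher, with a background of 7.52% and 10.1%, and the median was -0.07. The count furthest from its background was the 12 in clone 1, while the counts lower in clone 2 and HMC-1.1 were near theirs. The median over all genes tested was 0.01 or closer to 0 in each comparison. As the list was chosen with earlier results of these data known, these shares and those below describe it and do not test it. For the members not called higher, edgeR gave 5 higher at an unadjusted p under 0.05 in clone 1 and 9 in HMC-1.1, all under 1.5-fold, and DESeq2 and limma on FPKM also called 0.

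Across all 12 libraries, on the CPM scale, every HMC-1.2 library lay above the other 9 for 9 members (SREBF1, INSIG1, FDPS, IDI1, EBP, ACLY, ACACA, FADS1 and FADS2), against 17.2% of all genes tested. Every HMC-1.2 library lay below the other 9 for 4 members (SREBF2, SCAP, TM7SF2 and GGPS1), against 17.5%.

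**Figure D3:**
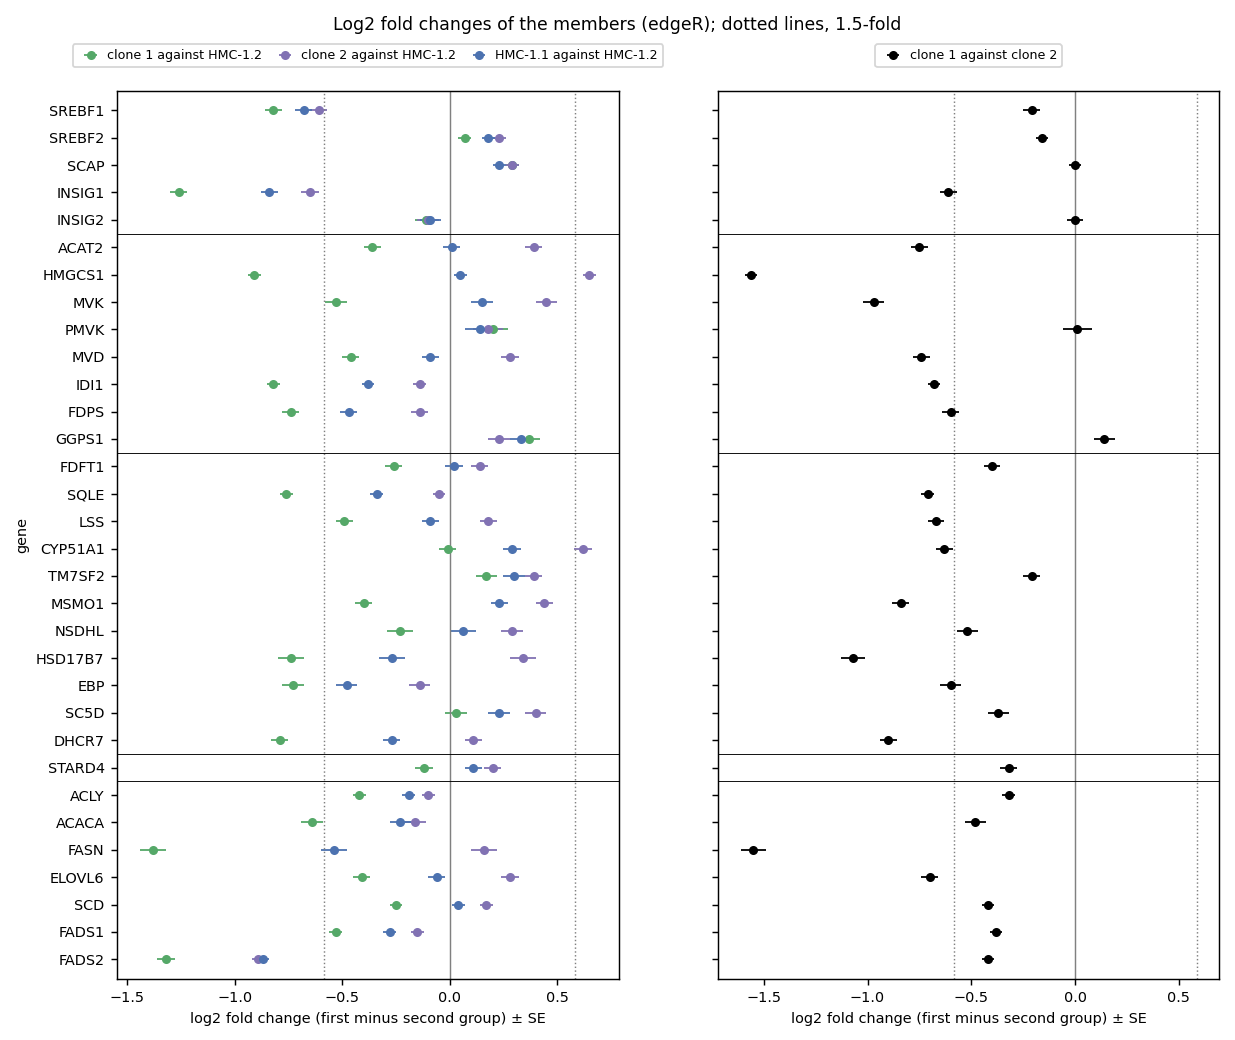
Log2 fold changes of the 32 genes with SE, by role, from the edgeR fit of 12 libraries (n = 3 per group). On the left each subline is set against HMC-1.2, which is shared by the 3 comparisons, and on the right clone 1 is set against clone 2. The dotted lines mark 1.5-fold, and 16 genes lie to the left of the lower line on the right.

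Among the regulators, SREBF1 and INSIG1 were highest in HMC-1.2 and the other 3 differed by less than 1.5-fold. SREBF1, which encodes the SREBP of fatty acid synthesis (hg38 chr17:17810399-17837002, minus strand, in the Gencode 44 annotation used for all gene positions), stood at 86.7, 100 and 103 FPKM in HMC-1.1, 154, 165 and 160 in HMC-1.2, 81, 84.2 and 83.3 in clone 1 and 95, 101 and 102 in clone 2. The HMC-1.2 libraries were all above the other 9, which lay close to each other. Its log2 fold change against HMC-1.2 was -0.82 ± 0.04 in clone 1 (SE, adjusted p = 5.3e-12), -0.61 ± 0.04 in clone 2 (adjusted p = 2.7e-10) and -0.68 ± 0.04 in HMC-1.1 (adjusted p = 7.4e-11). The clone 2 value sat near the threshold, and without HMC-1.2 replicate 2 or clone 2 replicate 1 it was -0.58 or -0.57 and no longer called.

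INSIG1, an anchor that retains SCAP in the endoplasmic reticulum and is itself an SREBP target (chr7:155297776-155310235, plus strand), stood at 225, 218 and 233 FPKM in HMC-1.1, 394, 385 and 401 in HMC-1.2, 177, 162 and 171 in clone 1 and 255, 265 and 258 in clone 2. The 4 groups did not overlap, with clone 1 lowest and HMC-1.2 highest. The log2 fold change against HMC-1.2 was -1.26 ± 0.04 in clone 1 (SE, adjusted p = 1.1e-14), -0.65 ± 0.04 in clone 2 (adjusted p = 7.1e-11) and -0.84 ± 0.04 in HMC-1.1 (adjusted p = 2.3e-12). Its paralogue INSIG2 stood at 11.4, 13.2 and 11.3 FPKM in HMC-1.1, 12.5, 11.2 and 13.5 in HMC-1.2, 12.4, 12.5 and 12.2 in clone 1 and 12.8, 12.9 and 12.8 in clone 2. These ranges overlapped, and relative to HMC-1.2 the differences of clone 1, clone 2 and HMC-1.1 were -0.11, -0.10 and -0.09 on the log2 scale, with adjusted p of 0.055, 0.075 and 0.11. Those differences are from counts. By mean FPKM clone 2 lay above HMC-1.2, at 12.8 against 12.4, so the sign for clone 2 depends on the measure.

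SREBF2, which encodes the SREBP of sterol synthesis, stood at 93.6, 96.5 and 91.8 FPKM in HMC-1.1, 81, 82.6 and 79.9 in HMC-1.2, 87.9, 87.7 and 89.4 in clone 1 and 93.9, 96.7 and 98.9 in clone 2. HMC-1.2 was the lowest group, unlike its place for SREBF1. Set against HMC-1.2, clone 1, clone 2 and HMC-1.1 differed by 0.07, 0.23 and 0.18 on the log2 scale, with adjusted p of 0.024, 1.5e-06 and 1.8e-05, all under 1.5-fold. SCAP, the escort that carries SREBPs to the Golgi, stood at 34.8, 35.1 and 34.3 FPKM in HMC-1.1, 29.3, 29 and 30.2 in HMC-1.2, 36.1, 37.9 and 36 in clone 1 and 36.2, 37.2 and 35.4 in clone 2. HMC-1.2 was again lowest, by 0.29 on the log2 scale against clone 1, 0.29 against clone 2 and 0.23 against HMC-1.1.

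**Figure D4:**
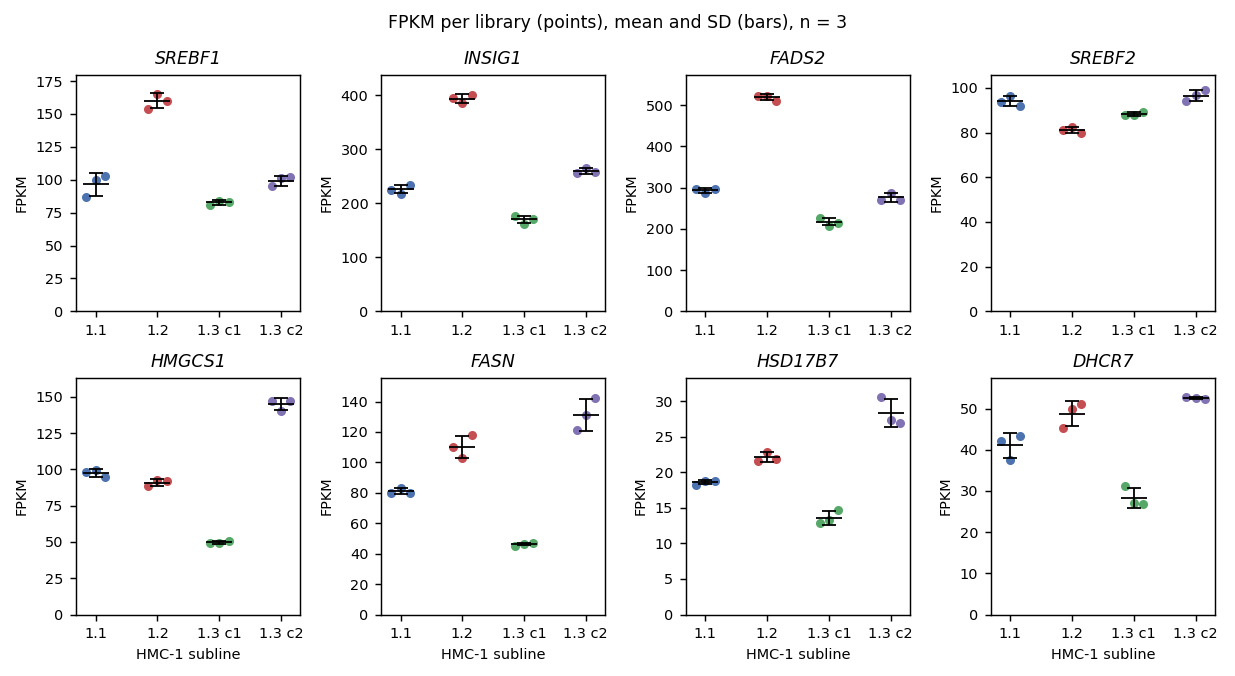
FPKM of 8 genes in each subline (1.3 c1 and 1.3 c2 are the HMC-1.3 clones), with 1 point per library and the mean and SD as bars (n = 3). SREBF1, INSIG1 and FADS2 are highest in HMC-1.2, while HMGCS1, FASN, HSD17B7 and DHCR7 are lowest in clone 1 and highest in clone 2.

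In the mevalonate branch, HMGCS1 showed the widest separation of the clones. It encodes HMG-CoA synthase, an early enzyme of the mevalonate route (chr5:43287470-43313512, minus strand), and stood at 98, 99.9 and 94.4 FPKM in HMC-1.1, 88.4, 92.4 and 92 in HMC-1.2, 49.2, 49.4 and 50.9 in clone 1 and 147, 140 and 147 in clone 2. HMC-1.1 and HMC-1.2 lay close together, with clone 1 well below both and clone 2 well above both. Against HMC-1.2 the log2 fold change was -0.91 ± 0.03 in clone 1 (SE, adjusted p = 6.7e-14) and 0.65 ± 0.03 in clone 2 (adjusted p = 4.3e-12), whereas in HMC-1.1 it was 0.05 ± 0.03 (adjusted p = 0.18). Clone 2 exceeded clone 1 by 2.96-fold.

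IDI1 and FDPS, which turn isopentenyl diphosphate into its isomer and into farnesyl diphosphate, had another order of groups. IDI1 stood at 67.4, 63.8 and 66.8 FPKM in HMC-1.1, 84.1, 85.1 and 83 in HMC-1.2, 49.1, 50.7 and 48.9 in clone 1 and 76.1, 75.5 and 77.9 in clone 2. FDPS stood at 386, 361 and 384 FPKM in HMC-1.1, 501, 511 and 492 in HMC-1.2, 322, 314 and 304 in clone 1 and 472, 480 and 438 in clone 2. Both were highest in HMC-1.2 and lowest in clone 1. Against HMC-1.2, IDI1 was -0.82 ± 0.03 on the log2 scale in clone 1 (SE, adjusted p = 2.3e-12), -0.14 in clone 2 and -0.38 in HMC-1.1. FDPS was -0.74 ± 0.04 in clone 1 (SE, adjusted p = 1.1e-10), -0.14 in clone 2 and -0.47 in HMC-1.1. Both genes have pseudogenes by name, 3 for IDI1 and 8 for FDPS, between which the counting could split reads. Their counts were not whole in 2 libraries for IDI1 and in 1 for FDPS.

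The other mevalonate genes were not called against HMC-1.2. For MVK (mevalonate kinase), MVD (mevalonate diphosphate decarboxylase) and ACAT2 (the thiolase that joins 2 acetyl-CoA molecules) the log2 fold changes were -0.53, -0.46 and -0.36 in clone 1 and 0.45, 0.28 and 0.39 in clone 2, each with an adjusted p of at most 8.8e-06. PMVK, the next kinase of the branch, stood at mean levels of 22.7 to 27.2 FPKM in the 4 groups, and its difference between the clones was 0.01 (adjusted p = 0.89). GGPS1, which makes the geranylgeranyl diphosphate used to anchor small GTPases and leaves the sterol route at this point, was highest in clone 1, at 19.8 ± 1.35 FPKM, and lowest in HMC-1.2, at 14.9 ± 0.907 (SD, n = 3). PMVK and GGPS1 were the members of this branch that were not lower in clone 1 than in clone 2.

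Between squalene and cholesterol, 4 genes were called lower in clone 1 than in HMC-1.2 and CYP51A1 was called higher in clone 2. SQLE, squalene epoxidase, which makes the first oxygenated intermediate after squalene, stood at 77.8, 76.9 and 76.5 FPKM in HMC-1.1, 94.6, 91.9 and 95 in HMC-1.2, 58.8, 59.3 and 59.2 in clone 1 and 99.5, 92.2 and 91.8 in clone 2. Clone 1 lay below all others, HMC-1.1 came next, and HMC-1.2 and clone 2 overlapped. The log2 fold change of SQLE against HMC-1.2 was -0.76 ± 0.03 in clone 1 (SE, adjusted p = 5.1e-12), -0.05 in clone 2 (adjusted p = 0.27) and -0.34 in HMC-1.1.

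DHCR7, which reduces 7-dehydrocholesterol to cholesterol in the last step, stood at 42.2, 37.5 and 43.4 FPKM in HMC-1.1, 45.4, 49.9 and 51.2 in HMC-1.2, 31.2, 27 and 26.9 in clone 1 and 52.9, 52.6 and 52.3 in clone 2. Clone 1 was lowest, and the clone 2 libraries lay just above those of HMC-1.2. The log2 fold change against HMC-1.2 was -0.79 ± 0.04 in clone 1 (SE, adjusted p = 5.2e-11), 0.11 in clone 2 and -0.27 in HMC-1.1. EBP, the sterol isomerase that moves the double bond of the B ring, stood at 154, 132 and 153 FPKM in HMC-1.1, 201, 198 and 196 in HMC-1.2, 125, 125 and 118 in clone 1 and 184, 192 and 175 in clone 2. HMC-1.2 was above and clone 1 below the other groups, with a log2 fold change of -0.73 ± 0.05 for clone 1 against HMC-1.2 (SE, adjusted p = 4.7e-09), -0.14 for clone 2 and -0.48 for HMC-1.1.

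HSD17B7, the 3-ketosteroid reductase of the C4 demethylation complex, stood at 18.2, 18.8 and 18.7 FPKM in HMC-1.1, 21.6, 22.9 and 21.9 in HMC-1.2, 12.8, 13.3 and 14.7 in clone 1 and 30.5, 27.4 and 26.9 in clone 2. The 4 groups did not overlap. Against HMC-1.2 the log2 fold change was -0.74 ± 0.06 in clone 1 (SE, adjusted p = 2e-08), 0.34 in clone 2 and -0.27 in HMC-1.1. Its counts were not whole numbers in 12 of 12 libraries, and 2 pseudogenes carry its name, so its level is uncertain. CYP51A1, lanosterol demethylase, stood at 73.1, 72.4 and 68.5 FPKM in HMC-1.1, 59.1, 57.6 and 56 in HMC-1.2, 61.6, 56.4 and 58 in clone 1 and 86.7, 89.5 and 90.2 in clone 2. HMC-1.2 and clone 1 overlapped at the low end, and clone 2 was above all others. Against HMC-1.2 the log2 fold change was 0.62 ± 0.04 in clone 2 (SE, adjusted p = 1.9e-10), -0.01 in clone 1 (adjusted p = 0.82) and 0.29 in HMC-1.1. CYP51A1 overlaps AKAP9 on the other strand and has 3 pseudogenes by name, with counts that were not whole in 11 libraries.

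The 6 members of this role not called against HMC-1.2 were FDFT1 (squalene synthase), LSS (lanosterol synthase), TM7SF2 (a sterol C14 reductase), MSMO1 and NSDHL (C4 demethylation) and SC5D (the C5 desaturase). On the log2 scale their differences from HMC-1.2 ran from -0.49 for LSS to 0.17 for TM7SF2 in clone 1, and from 0.14 for FDFT1 to 0.44 for MSMO1 in clone 2. STARD4, the only sterol carrier of the set, shuttles cholesterol between membranes and had mean levels of 22 ± 2 FPKM for clone 1, 24.2 ± 1.09 for HMC-1.2, 25.3 ± 0.616 for HMC-1.1 and 27.8 ± 1.47 for clone 2 (SD, n = 3). Relative to HMC-1.2 these were differences of -0.12, 0.11 and 0.20 on the log2 scale for clone 1, HMC-1.1 and clone 2.

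Of the 7 fatty acid genes, FASN, FADS2 and ACACA were called lower in clone 1 than in HMC-1.2. FASN, the multienzyme that builds palmitate (chr17:82078338-82098294, minus strand), stood at 80.2, 83.2 and 79.9 FPKM in HMC-1.1, 110, 103 and 118 in HMC-1.2, 45.3, 46.6 and 46.7 in clone 1 and 121, 131 and 142 in clone 2. Clone 1 and HMC-1.1 lay below HMC-1.2. Clone 2 lay above it on FPKM, while on the CPM scale the libraries of HMC-1.2 and clone 2 overlapped. The log2 fold change against HMC-1.2 was -1.38 ± 0.06 in clone 1 (SE, adjusted p = 1.7e-12), 0.16 ± 0.06 in clone 2 (adjusted p = 0.022) and -0.54 ± 0.06 in HMC-1.1 (adjusted p = 3.5e-07). ACACA, which makes the malonyl-CoA that FASN uses, stood at 37.8, 38.6 and 39.4 FPKM in HMC-1.1, 43.2, 44.7 and 47.6 in HMC-1.2, 32.1, 32.3 and 31.8 in clone 1 and 38.5, 39.5 and 43.2 in clone 2. Its values spread over a narrower range, and its log2 fold change of -0.64 ± 0.05 in clone 1 against HMC-1.2 (SE, adjusted p = 4.6e-09) was -0.48 on log2(FPKM + 1), under 1.5-fold.

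FADS2, the delta-6 desaturase of polyunsaturated fatty acid synthesis (chr11:61792980-61867354, plus strand), stood at 296, 286 and 297 FPKM in HMC-1.1, 523, 523 and 511 in HMC-1.2, 226, 208 and 215 in clone 1 and 270, 288 and 270 in clone 2. HMC-1.2 lay far above the other 9 libraries. The log2 fold change against HMC-1.2 was -1.32 ± 0.04 in clone 1 (SE, adjusted p = 5.2e-15), -0.89 ± 0.03 in clone 2 (adjusted p = 8.1e-13) and -0.87 ± 0.03 in HMC-1.1 (adjusted p = 1.1e-12). FADS1, the delta-5 desaturase that overlaps FADS2 on the other strand, was -0.53, -0.15 and -0.28 in the same comparisons, with a mean of 102 ± 5.14 FPKM in HMC-1.2 and 72.6 ± 0.383 in clone 1 (SD, n = 3). Whether the counting used strand is not given in the sources used here, so reads where the pair overlap cannot be assigned with certainty. FADS2 also overlaps FEN1 on the same strand, and its counts were not whole in 9 libraries.

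ACLY, ELOVL6 and SCD, which supply cytosolic acetyl-CoA, lengthen palmitate and desaturate stearate, were at -0.42, -0.41 and -0.25 in clone 1 against HMC-1.2 and at -0.10, 0.28 and 0.17 in clone 2. SCD was the most abundant of the 3, with means of 377 ± 9.64 FPKM in clone 1 and 493 ± 13.5 in clone 2 (SD, n = 3).

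The clones share the KIT genotype, and clone 1 was the lower of the pair for most members. In clone 1 against clone 2, 16 of 32 members were called lower and 0 higher, with a background of 4.25% and 8.38% of all genes tested, and the median log2 fold change was -0.56 against 0.01 over all genes. At an unadjusted p under 0.05 edgeR gave 28 lower and 1 higher, GGPS1 at 0.14, and DESeq2 and limma called 0 higher. Every clone 1 library lay below every clone 2 library for 28 members, against 27.3% of all genes tested. The exceptions were INSIG2, SCAP, PMVK and GGPS1.

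Called lower in clone 1 than in clone 2 were 6 mevalonate genes, 7 genes from squalene to cholesterol, 2 fatty acid genes and the regulator INSIG1. HMGCS1 (-1.56 ± 0.03 on the log2 scale, SE, adjusted p = 3.4e-16) and FASN (-1.55 ± 0.06, adjusted p = 1.3e-12) led. HSD17B7 followed at -1.07 ± 0.06, MVK at -0.97 ± 0.05, DHCR7 at -0.90 ± 0.04 and MSMO1 at -0.84 ± 0.04. MVK stood at 24.6, 22.2 and 22.8 FPKM in HMC-1.1, 20.3, 22.4 and 20.9 in HMC-1.2, 15, 15.8 and 15 in clone 1 and 27.2, 29.5 and 28.9 in clone 2. MSMO1, the C4 methyl sterol oxidase, stood at 49.2, 46.2 and 46.6 FPKM in HMC-1.1, 36.6, 38.3 and 42.1 in HMC-1.2, 31.9, 29.8 and 31 in clone 1 and 53, 55.9 and 55.4 in clone 2. Both placed clone 1 below and clone 2 above the other groups. MVK overlaps MMAB on the other strand, so the doubt about strand applies to its reads too. The other 10 called genes, ACAT2, MVD, SQLE, ELOVL6, IDI1, LSS, CYP51A1, INSIG1, FDPS and EBP, lay between -0.75 and -0.60. Not called were FDFT1 at -0.40, NSDHL at -0.52, SC5D at -0.37 and TM7SF2 at -0.21 among the later sterol genes, and ACLY at -0.32, ACACA at -0.48, SCD at -0.42 and FADS1 at -0.38 among the fatty acid genes.

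FDPS and EBP, both at -0.60, were near the threshold, and each was under 1.5-fold without clone 1 replicate 3 or clone 2 replicate 1, and on FPKM. EBP was also under it without clone 2 replicate 2, and ELOVL6 on log2(FPKM + 1), at -0.57. With the 3 libraries labelled as resent left out (HMC-1.2 replicate 1, clone 1 replicate 3 and clone 2 replicate 1) 14 members were called in place of 16. The regulators other than INSIG1 differed little between the clones, with SREBF1 at -0.21, SREBF2 at -0.16 and SCAP and INSIG2 within 0.01 of 0. FADS2, which separated HMC-1.2 from all other groups, was -0.42 between the clones.

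HMC-1.1 lay between the clones for most members. Every clone 1 library was below every HMC-1.1 library and every HMC-1.1 library below every clone 2 library for 23 members, against 7.16% of all genes tested. In clone 1 against HMC-1.1, 4 members were called lower and 0 higher, with a background of 0.339% and 0.671%, and the median was -0.30. These were HMGCS1 (-0.96 ± 0.03, SE, adjusted p = 4.3e-12), FASN (-0.85 ± 0.06, adjusted p = 5.1e-08), MVK (-0.68 ± 0.05, adjusted p = 1.5e-07) and MSMO1 (-0.62 ± 0.04, adjusted p = 1.9e-08). MVK was at -0.58 and not called on log2(FPKM + 1). At an unadjusted p under 0.05 edgeR gave 28 lower and 0 higher, and DESeq2 and limma called 0 higher.

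In clone 2 against HMC-1.1, 3 members were called higher and 0 lower, with a background of 3.04% and 5.15%, and the median was 0.21. These were FASN (0.70 ± 0.06, SE, adjusted p = 3.6e-08), HMGCS1 (0.61 ± 0.03, adjusted p = 4.5e-11) and HSD17B7 (0.61 ± 0.06, adjusted p = 3.3e-07). HSD17B7 was at 0.55 and not called without clone 2 replicate 1, and HMGCS1 was at 0.57 and not called on log2(FPKM + 1). At an unadjusted p under 0.05 edgeR gave 23 higher and 0 lower, and DESeq2 and limma called 0 lower. These comparisons share the HMC-1.1 libraries with each other and the clones with those above.

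Other genes of the pathways were counted as a list of 41, of which 39 were tested. In clone 1, clone 2 and HMC-1.1 against HMC-1.2, 5, 2 and 2 of the 39 were called lower, beside 8.18%, 8.51% and 7.52% of all genes tested, and DESeq2 called 6, 3 and 3. None was called higher (0 in each, beside 11.8%, 7.98% and 10.1% of all genes), while edgeR gave 10, 13 and 10 higher at an unadjusted p under 0.05 and DESeq2 and limma called 0 higher. On log2(FPKM + 1) limma called 2 of the 39 lower in each of the 3 comparisons. The medians of the 39 were -0.13, -0.02 and -0.10. Between the clones 4 were called lower in clone 1 and 1 higher, beside 4.25% and 8.38% of all genes. Against HMC-1.1, 1 was called lower in clone 1, where limma on FPKM called 0, and 0 were called in clone 2, where edgeR gave 20 higher and 9 lower at an unadjusted p under 0.05 and DESeq2 and limma called 0.

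Of the proteases that cut SREBPs in the Golgi, MBTPS1 was -0.64, -0.23 and -0.41 in clone 1, clone 2 and HMC-1.1 against HMC-1.2, called in clone 1 by edgeR and not by limma on FPKM, and MBTPS2 was 0.12, 0.09 and -0.01. TMEM97, a regulator of cholesterol trafficking, differed by -0.62 ± 0.04 between the clones (SE, clone 1 minus clone 2, adjusted p = 3.4e-09).

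ABCA1, the cholesterol exporter driven by liver X receptors, had means of 6.92 ± 0.815 FPKM for HMC-1.2, 2.03 ± 0.233 for clone 2, 1.83 ± 0.183 for HMC-1.1 and 1.58 ± 0.115 for clone 1 (SD, n = 3). It was called lower than in HMC-1.2 in clone 1 (-2.19 ± 0.09, SE), clone 2 (-1.77 ± 0.08) and HMC-1.1 (-1.94 ± 0.09). ACSL1, which activates long-chain fatty acids, was the gene called higher in clone 1 than in clone 2, at 19.1 ± 0.263 against 10.9 ± 0.935 FPKM (SD, n = 3) and 0.80 ± 0.04 on the log2 scale (SE, adjusted p = 6.4e-11).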

How the data were processed

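RNA from 12 wells of 4 HMC-1 sublines was sequenced as stranded poly(A) libraries in read pairs. According to the study's methods and the submitters' processing notes, the authors ran cutadapt 2.10 for trimming, STAR 2.5.3 for alignment to hg38, Picard for marking duplicates and RSEM 1.3.0 for quantifying Gencode genes. The deposited expected counts are not normalized, and 20.5% of the non-zero values are not whole; the FPKM values the authors deposited are scaled for length and depth. Groups came from the sample labels, and 12 of 12 count columns correlated best with the FPKM column of the same library. Expected counts were rounded and fitted over 12 libraries with edgeR 4.0.16 in R 4.3.3 (quasi-likelihood test, TMM factors 0.974 to 1.024, 4 group means, 8 residual degrees of freedom, Benjamini-Hochberg adjustment over 15944 genes). The fit was tested on simulated counts. DESeq2 1.42.0, limma 3.58.1 on log2(FPKM + 1) and log2(FPKM + 0.1), glmTreat, other filters, a replicate block, a term for resent libraries and each library left out were alternatives. Leaving out all resent libraries together and sums without SREBF1, INSIG1 or FADS2 were added after seeing the data.

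Members and lists were chosen with earlier results of these data known. Values per library were given for regulators and for members called against HMC-1.2; MVK and MSMO1 were added after their values were seen. Other pathway genes were named where called in both clones against HMC-1.2 or between the clones, with MBTPS1 and MBTPS2 in any case; some genes of these lists are not reported here. Positions are from Gencode 44 on hg38, matched by gene identifier.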

Additional observations from a re-analysis of the deposited data

Results flagged for a closer look

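For 16 members the change from HMC-1.2 differed between the clones by over 1.5-fold with an adjusted p under 0.05 in the edgeR fit, a test of the difference itself; without the fold limit 29 members had an adjusted p under 0.05, 28 lower in clone 1 and 1 higher. The value given is the log2 fold change of clone 1 against HMC-1.2 minus that of clone 2, in which the HMC-1.2 term drops out, so it is the same number as clone 1 against clone 2 and no further evidence. It was -1.56 for HMGCS1, -1.55 for FASN, -1.07 for HSD17B7, -0.97 for MVK and -0.90 for DHCR7. It was -0.84 for MSMO1, -0.75 for ACAT2, -0.74 for MVD, -0.71 for SQLE, -0.70 for ELOVL6 and -0.68 for IDI1. The smallest were -0.67 for LSS, -0.63 for CYP51A1, -0.61 for INSIG1, -0.60 for FDPS and -0.60 for EBP. The clones bear the same KIT variants, and with 1 line for each clone, what belongs to HMC-1.3 as a genotype cannot be told apart from what belongs to a clone.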

How the results depend on the processing

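Of 192 pairs of a member and a comparison, 159 had an adjusted p under 0.05, and 0 of these reversed under the 22 alternatives. Of 43 called pairs, 28 kept the call in every alternative, 15 lost it in at least 1 (8 in one other than glmTreat), and NSDHL between the clones gained it without clone 1 replicate 2 (-0.59). With glmTreat against 1.5-fold, 2 members were called in place of 5 in clone 2 against HMC-1.2, 2 in place of 4 in clone 1 against HMC-1.1 and 0 in place of 3 in clone 2 against HMC-1.1, for which limma on log2(FPKM + 1) called 1. For clone 1 against clone 2, glmTreat called 11 and limma 13 in place of 16. Leaving out 1 library at a time gave 12 called in clone 1 against HMC-1.2, 4 to 5 in clone 2 against HMC-1.2, 3 for HMC-1.1 set against HMC-1.2, 4 in clone 1 against HMC-1.1, 2 to 3 in clone 2 against HMC-1.1 and 14 to 17 in clone 1 against clone 2. Without all 3 resent libraries the counts were 12, 4, 3, 4, 2 and 14 in the same order. The cause of these changes was not tested; glmTreat by construction asks for more than 1.5-fold.

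With the replicate block the counts were 12, 5, 3, 4, 3 and 16 in the 6 comparisons, as without it. The numbers were not taken to pair the libraries, since the labels name nothing that they share and the deviations of 18 pairs with the same number correlated at -0.031 to 0.097, with 0 over 0.1. That 8 of 12 libraries correlated best with their own number is a hint from the data, not the design. The lowest count of a member in a library was 564. Limits not ranked here are 1 line per group with 3 wells, reads shared with pseudogenes, strand assignment and the resent libraries.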
